A study of Strigamia maritima with 9 samples.

Results

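CopiaMBD2-only regions are stretches of native *Strigamia maritima* DNA where CopiaMBD2 had a called binding peak and neither CopiaMBD1 nor CopiaMBD3 had a peak that touched it. They were found by pooling the 3 native-DNA peak lists, merging peaks that overlapped by at least 1 bp, and keeping the merged regions that held CopiaMBD2 peaks alone. This gave 4031 regions, 19.0% of the 21205 merged native-DNA regions and 28.8% of the 14001 CopiaMBD2 peaks. Each of the 4031 consisted of a single peak. Together they covered 754 kb on 2192 of the 6018 sequences that carried any native-DNA region. The sequences are assembly scaffolds with JH names and contigs with AFFK names.

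The CopiaMBD proteins are methyl-CpG binding domains encoded by Copia retrotransposons, mobile elements that copy themselves through RNA. In vertebrates, where the domain has been studied most, many of its members bind CpG sites methylated on both strands and so read the methylation that cells place on their DNA. *Strigamia maritima* is a coastal centipede, and the series asks where domains of this kind bind the DNA of their own host.

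In DAP-seq, purified genomic DNA is incubated with a protein made in vitro, and the fragments it retains are sequenced. CopiaMBD1, CopiaMBD2 and CopiaMBD3, each fused to HaloTag (a tag that couples the protein to beads), were offered phenol-chloroform purified DNA of adult animals of the genome-sequence strain, sheared to a mean of 200 bp, and the retained DNA went through 20 PCR cycles. The same domains were also offered DNA that had first been through 11 PCR cycles (ampDAP-seq, here amplified DNA), which copies the bases but not the methyl groups, and the methylation of either DNA was not analysed here. HaloTag alone on native DNA was the control of all 3 native-DNA peak lists, and HaloTag alone on amplified DNA that of the amplified-DNA lists. The series has 9 samples, of which a MethylC-seq sample was not analysed here. There was 1 library for each combination, so no value below has a replicate and no test between conditions was possible. The intervals are exact 95% Clopper-Pearson intervals and cover counting error only. Regions on 1 sequence are not independent of each other. The domains were tested as isolated fusion proteins on naked DNA, and the sources used here give no number of animals.

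At the median, CopiaMBD2-only peaks were the weakest of the 4 groups of CopiaMBD2 peaks. Their fold enrichment, the authors' ratio of coverage at the summit to the local HaloTag-only level, had a median of 4.19 (interquartile range 3.48 to 4.98) and spanned 1.55 to 13.6. CopiaMBD2 peaks shared with CopiaMBD1 had a median of 4.55 (3.78 to 5.64), those shared with CopiaMBD3 a median of 4.65 (3.73 to 5.64), and those in regions of all 3 domains a median of 5.37 (4.18 to 7.11). These values come from the same calls that chose the regions and are given as a description. The interquartile ranges of the 4 groups overlapped, while the median in regions of all 3 domains lay above the upper quartile of the CopiaMBD2-only peaks.

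**Figure D1:**
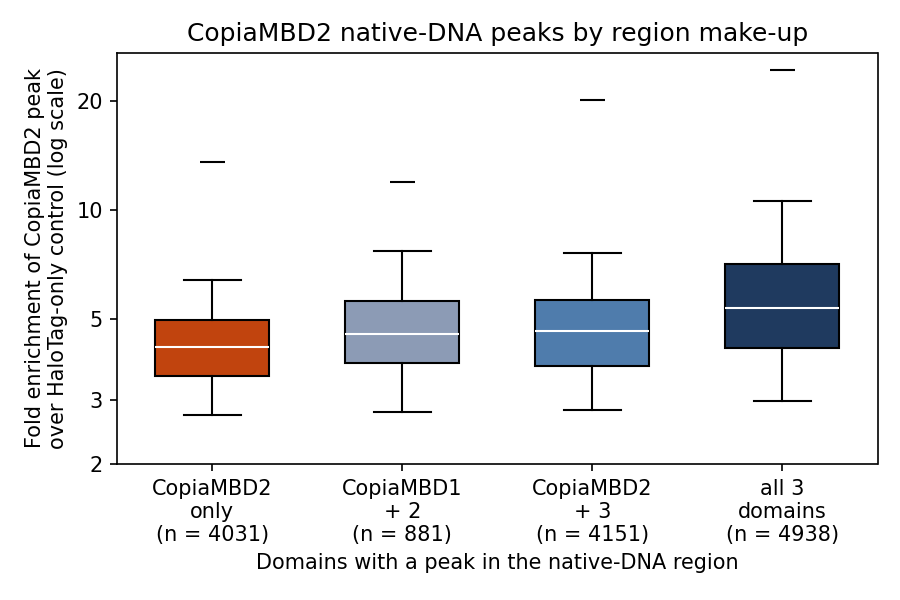
Fold enrichment of CopiaMBD2 native-DNA peaks over the HaloTag-only control (log axis), grouped by the domains with a peak in the same merged region; boxes span the middle 50% with the median in white, whiskers run to percentiles 5 and 95, and the separate dash is the highest peak. The CopiaMBD2-only box sits lowest, with a median of 4.19 and a highest peak of 13.6, against a median of 5.37 and a highest peak of 24.3 where all 3 domains had a peak.

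A fold of at least 8 was reached by 38 CopiaMBD2-only peaks (0.943%), against 7.44% of all CopiaMBD2 peaks. A fold of at least 5 was reached by 954 of them (23.7%), against 41.0% of the whole list. A −log10 q of at least 10, where q is the peak caller's adjusted p-value, was reached by 298 (7.39%), against 25.9% of the whole list. At the other end, 160 (3.97%) had a −log10 q under 2, against 2.26% of all CopiaMBD2 peaks. The peaks were also narrow. Their median width was 169 bp, against 200 bp over the whole list. It was 192 bp for peaks shared with CopiaMBD1, 193 bp for those shared with CopiaMBD3 and 261 bp in regions of all 3 domains. The smallest width in the list was 140 bp, the fragment length used by the peak caller. It was the width of 644 CopiaMBD2-only peaks (16.0%), against 8.29% of the whole list.

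Read the other way round, the share of CopiaMBD2 peaks that were CopiaMBD2-only fell with strength. It was 38.8% (36.0 to 41.6) of the 1191 peaks with a fold under 3 and 40.4% (38.8 to 42.0) of the 3561 peaks with a fold of 3 to 4. It was 33.5% (31.9 to 35.0) between 4 and 5, 25.1% (23.4 to 26.8) between 5 and 6 and 12.7% (11.3 to 14.2) between 6 and 8. Between 8 and 10 it was 5.08% (3.54 to 7.03) of 669 peaks, and between 10 and 15 it was 1.22% (0.333 to 3.09) of 328. None of the 45 peaks with a fold of 15 or more was CopiaMBD2-only. The share of peaks that also had both other domains ran the opposite way, at 24.8% under a fold of 3 and 95.6% at 15 or more, while the share with CopiaMBD1 alone stayed between 6.05 and 6.97% up to a fold of 8.

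**Figure D2:**
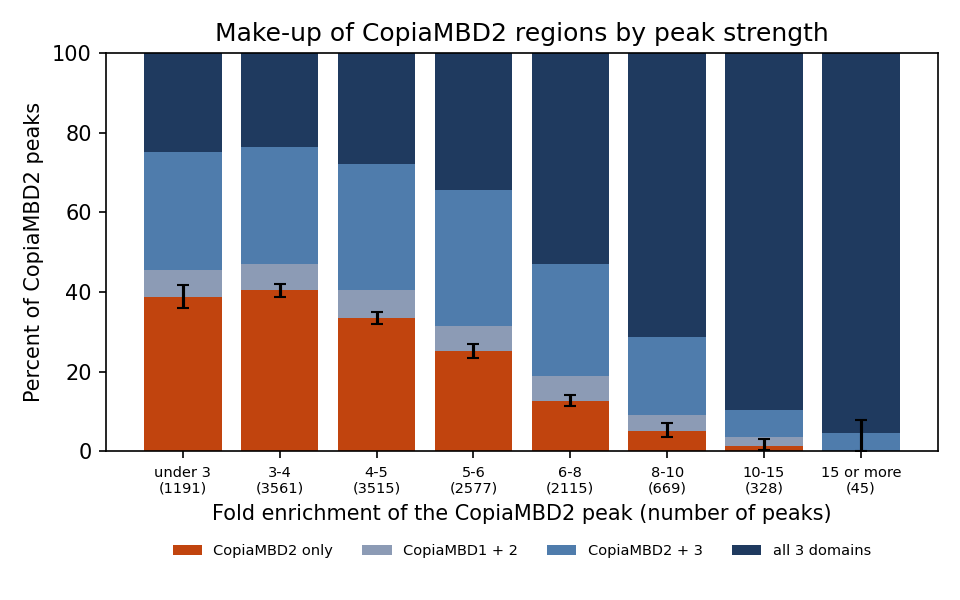
Percent of CopiaMBD2 native-DNA peaks in regions of each make-up, in bins of the peak's fold enrichment (number of peaks in brackets); bars stack to 100 and error lines are 95% Clopper-Pearson intervals of the CopiaMBD2-only share. The CopiaMBD2-only share falls to 1.22% between folds of 10 and 15, against 40.4% between 3 and 4.

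In fragments, the median CopiaMBD2-only summit was covered by 14 fragments (interquartile range 12 to 17), for which counting alone allows 7.65 to 23.5 (exact Poisson 95% interval). The median was 22 fragments (17 to 31) in regions of all 3 domains. Among summits at the lowest control level of the list, where the control is the same for every group, 876 CopiaMBD2-only summits had a median of 12 fragments (10 to 14), against 18 (14 to 22) at 712 summits in regions of all 3 domains. At the lowest control level of their own lists, called peaks went down to 7 fragments for CopiaMBD2, 8 for CopiaMBD1 and 7 for CopiaMBD3. A peak list gives no level where no peak was called, so the coverage of CopiaMBD1 and CopiaMBD3 at these regions was not analysed here. A CopiaMBD2-only region is thus a place where the other domains were not called, which is not the same as a place they do not bind.

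None of the 10 CopiaMBD2-only regions with the highest fold lay within 1 kb of a peak of another domain. A peak of another domain did lie within 1 kb of 9 of the 38 regions with a fold of at least 8, and of 114 of the 298 (38.3%) with a −log10 q of at least 10, against 42.6% of all CopiaMBD2-only regions. The 10 regions lay on 10 different sequences, 5 of which held no CopiaMBD1 or CopiaMBD3 peak at all, and the nearest such peak to any of the other 5 was 1135 bp away. The strongest was on scaffold JH429704 (positions 4849 to 5088), with a fold of 13.6, 37 fragments over the summit (exact Poisson 95% interval 26.1 to 51.0), a −log10 q of 32.2 and the control at its lowest level. It ranked at place 68 in the whole CopiaMBD2 list. The only other peak on that scaffold, at 949 to 1090, was also CopiaMBD2-only and had a fold of 4.48.

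The next was on contig AFFK01004910 (210 to 655), with a fold of 12.5 and 34 fragments, the only native-DNA peak on its contig. On scaffold JH432213 the region at 106575 to 106845 had a fold of 11.5 and 38 fragments, on a sequence with 23 CopiaMBD1 and 52 CopiaMBD3 peaks, the closest of them 1653 bp away. On JH431941 the region at 33693 to 33914 had a fold of 10.4 and 28 fragments, 2205 bp from a CopiaMBD1 peak. The other 6 were on JH430799 (4687 to 4882), AFFK01015964 (3417 to 3743), AFFK01018808 (14373 to 14587), AFFK01002584 (116 to 259), JH432209 (11238 to 11714) and AFFK01008341 (783 to 1046), with folds of 9.30 to 9.66 and 25 to 27 fragments. The Poisson intervals of their fragment counts overlapped, so their order is within counting error.

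The widest CopiaMBD2-only regions were not the strongest. The 5 widest, of 546 to 598 bp, had folds of 3.15 to 5.72 and lay on AFFK01016778 (2860 to 3457), AFFK01016509 (5995 to 6589), JH430752 (19026 to 19618), AFFK01020101 (82077 to 82648) and JH431056 (31480 to 32025). In 3 of the 5 a CopiaMBD3 peak lay within 108 bp.

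The CopiaMBD2-only summits with the very highest coverage had high coverage in the control too. The 3 summits with most fragments were on AFFK01017577 (24 to 377), AFFK01002872 (660 to 837) and AFFK01007070 (236 to 439), with 126, 120 and 113 fragments and folds of 1.66, 2.23 and 5.67. The control level there was 42.0, 29.7 and 10.7 times its lowest value. A control of 10 times the lowest or more was found under 38 CopiaMBD2-only summits (0.943%), against 2.12% of all CopiaMBD2 peaks. These summits had a median fold of 2.65, and 29 of them were on AFFK contigs. The control was 3 times the lowest or more under 6.57% of CopiaMBD2-only summits, against 11.8% of the whole list. It was below 3 times the lowest under 3766 CopiaMBD2-only summits (93.4%), with a median fold of 4.25. The 38 regions with a fold of at least 8 had a median of 25 fragments (full range 22 to 57). Their control level had a median of 1.09 times the lowest. Fold is the ratio of coverage to control, so choosing on a high fold itself favours high coverage at low control. The part of control coverage in these calls was not tested.

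Many CopiaMBD2-only regions lay close to, but apart from, peaks of the other domains. A CopiaMBD1 or CopiaMBD3 peak was present on the same sequence for 3385 of the 4031, at a median distance of 974 bp (interquartile range 320 to 2730). The distance was at most 200 bp for 575 regions (14.3%) and at most 1 kb for 1716 (42.6%, 41.0 to 44.1). A CopiaMBD3 peak lay within 1 kb of 1560 regions (38.7%) and a CopiaMBD1 peak within 1 kb of 867 (21.5%), from lists of 15714 and 7461 peaks, and 711 regions had both. For comparison, 39.1% (37.9 to 40.4) of the 5993 CopiaMBD3-only regions had a CopiaMBD1 or CopiaMBD2 peak within 1 kb, and 46.6% (43.3 to 49.9) of the 915 CopiaMBD1-only regions had a CopiaMBD2 or CopiaMBD3 peak within 1 kb. The number of peaks that could lie nearby differs between these groups, so their shares stand side by side without a comparison.

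Fold enrichment hardly varied with this distance. The median fold was 3.98 for regions with another domain's peak within 200 bp, 4.23 beyond 200 bp and up to 1 kb, 4.20 beyond 1 kb and up to 5 kb, 3.98 beyond 5 kb and 4.29 on sequences with no such peak. The median coverage was 13 or 14 fragments in each of these groups. The regions farthest from another domain were on JH431829 (621154 to 621309), 439522 bp from a CopiaMBD3 peak, on JH432105 (522788 to 522950), 273484 bp away, and on JH431624 (226057 to 226254), 203241 bp away. Their folds of 4.54, 3.98 and 3.48 were ordinary for the group.

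**Figure D3:**
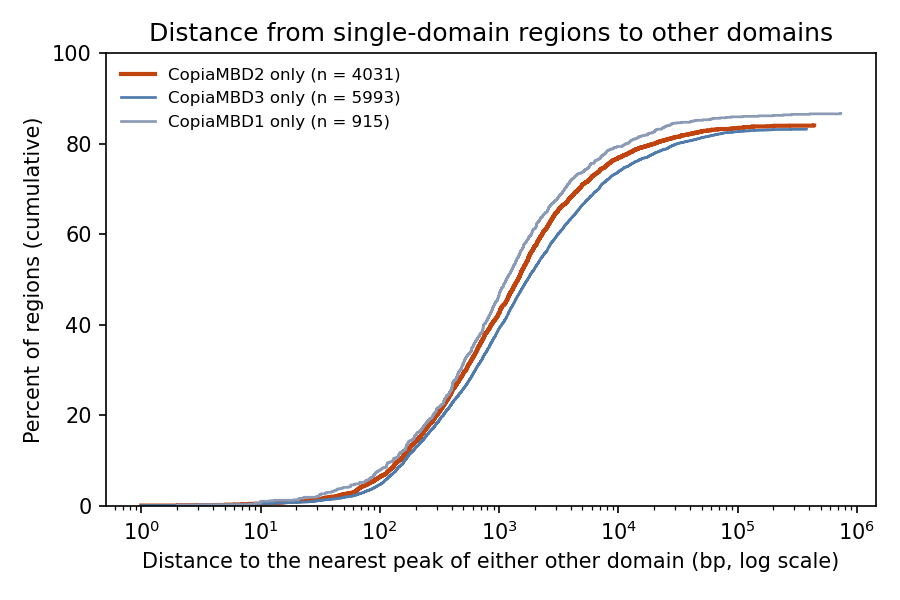
Cumulative percent of single-domain native-DNA regions by the distance to the nearest peak of either other domain on the same sequence (bp, log axis); curves end below 100 because some regions share their sequence with no such peak. The CopiaMBD2-only curve passes 42.6% at 1 kb, between those of CopiaMBD3-only (39.1%) and CopiaMBD1-only regions (46.6%).

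The boundary of the rule ran through a continuous range of spacings. Just inside it, the region on JH431785 (66163 to 66480, fold 3.90) was separated by 1 bp from a CopiaMBD3 peak of fold 3.66. Those on JH430901 (10490 to 10629, fold 3.94) and AFFK01015226 (14812 to 15032, fold 5.98) were 2 bp from CopiaMBD3 peaks of fold 4.65 and 4.31. Just outside it, CopiaMBD2 peaks on JH430348 (4132 to 4342, fold 3.48) and JH432018 (11250 to 11457, fold 3.48) overlapped CopiaMBD3 peaks of fold 3.77 and 6.98 by 1 bp, and one on AFFK01012727 (649 to 848, fold 2.99) overlapped a CopiaMBD3 peak of fold 4.92 by 2 bp. In all, 103 CopiaMBD2-only regions had another domain's peak within 50 bp, and 112 CopiaMBD2 peaks were left out for an overlap of at most 50 bp.

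A further 646 CopiaMBD2-only regions lay on 593 sequences with no peak of another domain, 466 of them AFFK contigs. The region was the only one on its sequence in 543 cases, and 48 sequences had 2. Contig AFFK01020810 had 3, with folds of 5.73, 3.18 and 5.23, and scaffold JH430654 had 4, at 144 to 337, 3673 to 3812, 7566 to 7705 and 8791 to 9029, with folds of 5.64, 3.94, 4.31 and 5.73. Both were singled out after their values were seen.

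CopiaMBD2-only regions were less often on AFFK contigs than regions of all 3 domains were. Contigs held 1342 of them (33.3%, 31.8 to 34.8), against 42.9% (41.5 to 44.4) of regions of all 3 domains, 41.4% (38.1 to 44.7) of those of CopiaMBD1 and CopiaMBD2, and 35.4% of all native-DNA regions. The share was 36.3% (34.8 to 37.8) in regions of CopiaMBD2 and CopiaMBD3. It was 31.7% (28.5 to 35.1) in regions of CopiaMBD1 and CopiaMBD3, 31.1% (28.2 to 34.3) in CopiaMBD1-only regions and 30.9% (29.8 to 32.1) in CopiaMBD3-only regions, and these 3 intervals overlapped the CopiaMBD2-only one.

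Because the contig share also varied with fold, the same comparison was made within fold bins. Among peaks with a fold under 3, 31.2% (27.0 to 35.6) of CopiaMBD2-only peaks were on contigs, against 42.4% (36.7 to 48.2) of CopiaMBD2 peaks in regions of all 3 domains. Between folds of 4 and 5 the shares were 31.5% (28.8 to 34.2) and 38.6% (35.5 to 41.7). Between 3 and 4 they were 32.3% (29.9 to 34.8) and 36.4% (33.1 to 39.7), between 5 and 6 they were 36.6% (32.9 to 40.5) and 41.7% (38.5 to 45.1), and between 6 and 8 they were 40.5% (34.6 to 46.7) and 42.1% (39.2 to 45.1). The CopiaMBD2-only share was the lower in each of these 5 bins, with intervals apart in the bins under 3 and from 4 to 5 and overlapping in the others. Against CopiaMBD2 peaks shared with CopiaMBD3 alone, the intervals overlapped in all 5 bins. The median control level at CopiaMBD2-only summits was 1.17 times the lowest on contigs and 1.27 times on scaffolds, and 1.79% of CopiaMBD2-only regions began in the first 100 bp of their sequence, against 6.72% of regions of all 3 domains. The part of either in the contig share was not tested.

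CopiaMBD2-only regions had a close neighbour less often than regions of all 3 domains or of CopiaMBD2 and CopiaMBD3. Another native-DNA region of any make-up lay within 1 kb of 49.6% (48.0 to 51.1) of them, against 52.9% of all native-DNA regions. This was 56.6% (55.2 to 58.1) for regions of all 3 domains and 56.5% (55.0 to 58.1) for CopiaMBD2 and CopiaMBD3 regions. The share was 54.4% (51.0 to 57.7) in regions of CopiaMBD1 and CopiaMBD2 and 53.7% (50.2 to 57.3) in those of CopiaMBD1 and CopiaMBD3. In CopiaMBD3-only regions it was 50.1% (48.8 to 51.3), and in CopiaMBD1-only regions 49.2% (45.9 to 52.5). These intervals overlap that of the CopiaMBD2-only regions. Regions alone on their sequence were also fewer, at 13.5% (12.4 to 14.6) of CopiaMBD2-only regions, against 19.6% (18.5 to 20.8) of regions of all 3 domains. They were 14.8% of all native-DNA regions, 13.1% (12.3 to 14.0) of CopiaMBD3-only regions and 14.0% (12.9 to 15.1) of CopiaMBD2 and CopiaMBD3 regions. The last 2 intervals overlapped the CopiaMBD2-only one. Another native-DNA region lay within 5 kb of 75.8% (74.5 to 77.1) of CopiaMBD2-only regions and 76.4% of all native-DNA regions. This was 75.5% (74.2 to 76.7) for regions of all 3 domains. Regions of CopiaMBD2 and CopiaMBD3 stood at 78.9% (77.6 to 80.2), an interval apart from the CopiaMBD2-only one. Another CopiaMBD2-only region lay within 1 kb of 563 CopiaMBD2-only regions (14.0%, 12.9 to 15.1). A region of the same kind lay within 1 kb of 18.9% (17.9 to 19.9) of CopiaMBD3-only regions. For regions of CopiaMBD2 and CopiaMBD3 this was 18.3% (17.1 to 19.5), and for regions of all 3 domains 23.6% (22.3 to 24.8). It was 2.31 to 4.80% in the smaller groups. The number of regions of 1 kind differs, so these shares stand side by side without a comparison.

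The nearest neighbour of a CopiaMBD2-only region was slightly more often of its own kind than the share of such regions in the series, as it was for every other make-up. Of the 3488 with a neighbour on their sequence, the nearest region was CopiaMBD2-only in 761 cases (21.8%, 20.5 to 23.2), CopiaMBD3-only in 990 (28.4%) and of all 3 domains in 666 (19.1%). These make-ups were 19.0, 28.3 and 21.5% of all regions. The nearest region was of the same kind for 30.6% of CopiaMBD3-only regions, 26.9% of regions of all 3 domains and 22.1% of regions of CopiaMBD2 and CopiaMBD3, the last of which were 19.1% of all regions. A CopiaMBD2-only region was the nearest neighbour of 18.7% (17.6 to 19.8) of CopiaMBD3-only regions and of 17.7% (16.5 to 19.0) of regions of all 3 domains.

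No sequence held a large part of the CopiaMBD2-only regions. Of the 2192 sequences with any, 1396 had a single one and 20 had 10 or more, and those 20 held 276 regions (6.85%). Scaffold JH431789 had the most, 32 of its 186 regions (17.2%, 12.1 to 23.4), with folds of 2.65 to 7.85. They were spread from position 11815 to 707782 at a median spacing of 16475 bp, never under 1282 bp, and 16 of them lay within 1 kb of another domain's peak. JH432211, with as many regions in all, had 24 (12.9%, 8.45 to 18.6), with folds of 2.79 to 6.48, and 19 of the 24 were within 1 kb of another domain. JH431878 had 19 of 70 (27.1%, 17.2 to 39.1), with folds of 2.42 to 6.19, and 7 of the 19 were within 1 kb of another domain.

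Over the 137 sequences with at least 20 regions, CopiaMBD2-only regions made up 0 to 40.9% of a sequence's regions, with a median of 19.0% (interquartile range 12.5 to 25). The pooled share was 18.5%. The interval of a single sequence lay above it in 6 cases and below it in 7. The highest shares, singled out after the values were seen, were 9 of 22 on JH431845 (40.9%, 20.7 to 63.6), 10 of 25 on JH431107 (40.0%, 21.1 to 61.3) and 8 of 20 on JH430907 (40.0%, 19.1 to 63.9), and among longer lists 18 of 50 on JH431410 (36.0%, 22.9 to 50.8). On JH429716 none of 35 regions was CopiaMBD2-only, which allows a share of up to 8.57% where the limit of a count of 0 is taken as 3 counts of the total, in place of the exact interval. None was found among 28 regions on AFFK01015044 and 20 on JH430128, for which the same limit is 10.7 and 15%, and the exact intervals reach 12.3 and 16.8%.

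**Figure D4:**
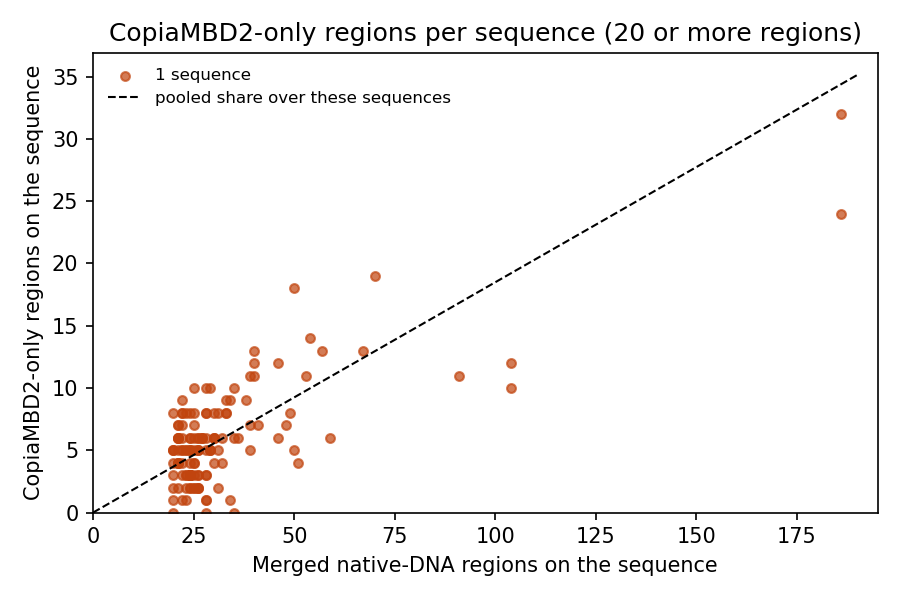
Number of CopiaMBD2-only regions against the number of all merged native-DNA regions, 1 point for each of the 137 sequences with at least 20 regions; the dashed line is the pooled share of 18.5%. JH431789 and JH432211, both with 186 regions, are the points at the far right, with 32 and 24 CopiaMBD2-only regions.

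CopiaMBD2 peaks on amplified DNA were rare at native-DNA regions of every make-up, and the CopiaMBD2-only share was not apart from that over all regions. The rule did not use the amplified-DNA lists. A CopiaMBD2 amplified-DNA peak overlapped 2 of the 4031 regions (0.0496%, 0.00601 to 0.179), against 0.156% of all native-DNA regions. The share was 0.373% (0.218 to 0.597) in regions of all 3 domains and 0.222% (0.101 to 0.421) in those of CopiaMBD2 and CopiaMBD3. Among the 875 regions of CopiaMBD1 and CopiaMBD2 it was 0% (0 to 0.421). The CopiaMBD2-only interval lay below that of the regions of all 3 domains and overlapped those of both pairs. CopiaMBD3-only regions, which have no native CopiaMBD2 peak, had 3 of 5993 (0.0501%, 0.0103 to 0.146), an interval that overlaps the CopiaMBD2-only one.

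Amplified-DNA peaks of CopiaMBD1 and CopiaMBD3 were rare at these regions too, with intervals that held the shares over all native-DNA regions. CopiaMBD1 amplified-DNA peaks overlapped 9 CopiaMBD2-only regions (0.223%, 0.102 to 0.423), against 0.207% of all native-DNA regions, and CopiaMBD3 amplified-DNA peaks overlapped 4 (0.0992%, 0.0270 to 0.254), against 0.25% of all regions. As shares of the amplified-DNA lists, these were 2.51% (1.16 to 4.72) of 358 CopiaMBD1 peaks, 2 of 133 CopiaMBD2 peaks (interval 0.183 to 5.33%) and 2.37% (0.649 to 5.95) of 169 CopiaMBD3 peaks, which overlap. An amplified-DNA peak of any domain was found at 14 CopiaMBD2-only regions (0.347%, 0.190 to 0.582), against 1.23% (0.930 to 1.59) of regions of all 3 domains and 0.566% of all native-DNA regions.

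Region width moved with these shares. Per Mb of region, amplified-DNA peaks of any domain were found at 18.6 CopiaMBD2-only regions, 17.6 CopiaMBD2 and CopiaMBD3 regions and 28.6 regions of all 3 domains, and CopiaMBD2 amplified-DNA peaks at 2.65, 7.55 and 8.69. With fixed 200 bp windows at the CopiaMBD2 summit, CopiaMBD2 amplified-DNA peaks met 2 of 4031 CopiaMBD2-only summits (0.0496%, 0.00601 to 0.179), 8 of 4151 summits shared with CopiaMBD3 (0.193%, 0.0832 to 0.379) and 14 of 4938 summits in regions of all 3 domains (0.284%, 0.155 to 0.475). These 3 intervals overlapped. In the same windows an amplified-DNA peak of any domain met 0.397% (0.227 to 0.644) of CopiaMBD2-only summits and 0.992% (0.735 to 1.31) of summits in regions of all 3 domains, and these intervals were apart. The CopiaMBD2 amplified-DNA intervals also overlapped between CopiaMBD2-only regions and regions of all 3 domains when only peaks with a control level under 3 times the lowest were kept, at 0.0713% (0.0147 to 0.208) and 0.345% (0.172 to 0.616).

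**Figure D5:**
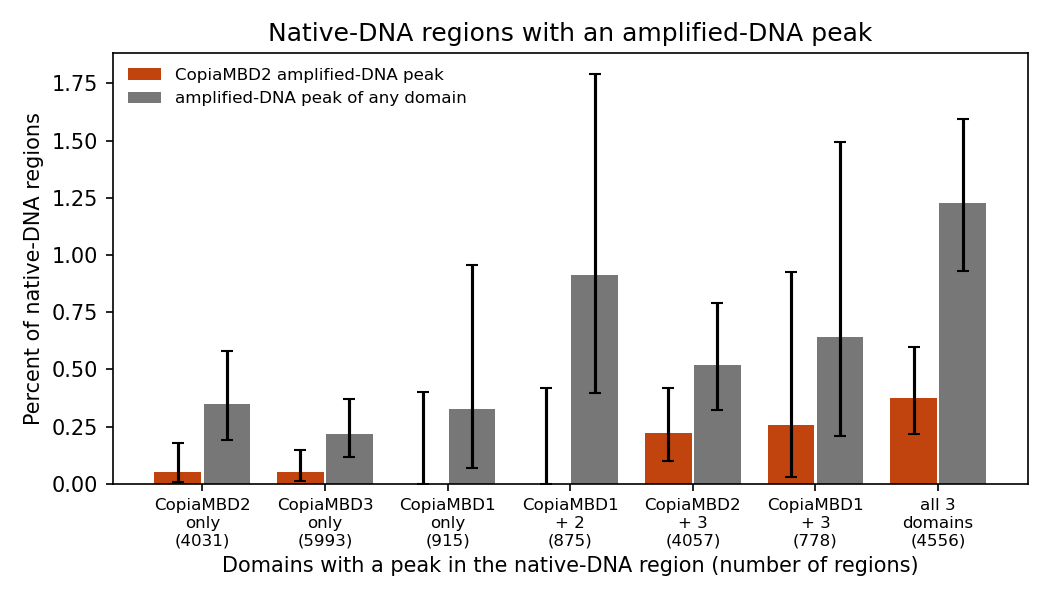
Percent of native-DNA regions of each make-up that overlap an amplified-DNA peak of CopiaMBD2 or of any domain (number of regions in brackets); error lines are 95% Clopper-Pearson intervals. CopiaMBD2-only regions, at the left, stand at 0.0496 and 0.347%, against 0.373 and 1.23% where all 3 domains had a native-DNA peak.

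The regions with a CopiaMBD2 peak on both kinds of DNA both had a native fold below the CopiaMBD2-only median. On AFFK01019836 (132 to 274) the native fold was 2.34 with 39 fragments and a control level 8.97 times the lowest, and amplified DNA gave folds of 3.56 for CopiaMBD2 and 4.07 for CopiaMBD3. On JH430197 (5191 to 5330) the native fold was 3.81 with 13 fragments, and CopiaMBD2 on amplified DNA had a fold of 4.34 at 5079 to 5215. That amplified-DNA peak ended before the native summit at 5239. The highest amplified-DNA fold at any CopiaMBD2-only region was 4.77, for CopiaMBD1 on JH432191 (138764 to 138950, native fold 4.29). The second-strongest CopiaMBD2-only region, on AFFK01004910, met a CopiaMBD3 amplified-DNA peak of fold 4.43 (598 to 727), which covered its summit at 642.

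The other 6 of the 10 regions with the highest amplified-DNA fold had native folds of 3.38 to 5.73. On JH431720 (20784 to 20923), JH429885 (18375 to 18514), JH431582 (14470 to 14730), JH431585 (25243 to 25585) and JH430630 (4940 to 5079) the amplified-DNA peak was one of CopiaMBD1, of fold 2.57 to 4.35. On JH431021 (3535 to 3675) it was one of CopiaMBD3, of fold 4.24. The 9 regions with a CopiaMBD1 amplified-DNA peak had native CopiaMBD2 folds of 3.38 to 5.73, with a median of 4.20. Over all 14 regions with an amplified-DNA peak the median native fold was 4.17, against 4.19 for the CopiaMBD2-only regions without one.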

How the data were processed

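The regions and lists were chosen with earlier results of these data known. Per the file headers, the authors called peaks per library with MACS2 (2.1.0.20150731, q-value 0.05) against HaloTag alone on the same DNA, sampling the larger library down to the smaller. They kept 1 tag per position, took control levels over 1 and 10 kb, and used an effective genome size of 173.6 Mb. Other tools named in the submitters' processing notes are BS-Seeker2, Bowtie2, Bowtie, fastp and CASAVA 1.8.2. The genome build was not given in the sources used here. Positions are 1-based as deposited, and no genome sequence or annotation was used. Deposited pileup values are a coverage signal, in fragments over the summit after down-sampling. The fold enrichment was deposited by the authors as the ratio of pileup to local control. Values of −log10 p and −log10 q were deposited as the peak caller gave them. Fold and q describe, rank and filter peaks within 1 list.

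Unique tags in the domain libraries numbered 2044955 to 2239324 on native DNA and 3488873 to 3772201 on amplified DNA, against 4050757 and 3685424 for HaloTag alone, which limits what can be called. The control level was recovered as (pileup + 1) / fold − 1. Overlap meant at least 1 bp, and distances are the bases between peaks on the same sequence. Merging and overlap were tested on simulated peaks. The tools were scipy 1.17.1, pandas 2.3.3, numpy 2.4.6 and matplotlib 3.10.9 under Python 3.11.15.

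Named regions are the 10 of highest fold, the 5 widest, the 3 of highest pileup, the 3 farthest from another domain, the 3 nearest to the rule on either side, the 10 of highest amplified-DNA fold, and the 3 sequences with most regions. The planned sequence content and gene annotation of the regions were not run, as they need a genome. Alternatives changed the peak threshold, the overlap, the list length, the sequences, the lists used and, chosen after seeing the data, the control level and the window searched on amplified DNA.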

Additional observations from a re-analysis of the deposited data

How the results depend on the processing

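The number, strength and surroundings of CopiaMBD2-only regions depended on the peak threshold and on the other lists. With a −log10 q of at least 10 in all 3 lists there were 1123 (31.0% of CopiaMBD2 peaks), with a median fold of 6.80, 21.1% within 1 kb of another domain's peak, 43.0% on contigs, 0% with a CopiaMBD2 amplified-DNA peak and 5.70% with another such region within 1 kb. In the same order, a fold of at least 5 in all lists gave 2087 regions, 36.4%, 5.73, 28.7%, 37.8%, 0% and 7.81%. Strict CopiaMBD2 peaks against the full other lists gave 298 regions, 8.23%, 6.74, 38.3%, 45.3%, 0% and 1.34%. With 7461 peaks in every list there were 2129 regions with a median fold of 5.37, 33.2% near another domain, 37.6% on contigs and 6.15% near another such region.

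On sequences spanning at least 100 kb there were 982 regions (32.7% of CopiaMBD2 peaks) with a median fold of 3.98, 40.4% near another domain, 1.32% on contigs and 0% with a CopiaMBD2 amplified-DNA peak. Without the CopiaMBD3 list there were 8381 regions (59.9%), with a median fold of 4.32, 24.1% near CopiaMBD1 and 28.9% near another such region. Without the CopiaMBD1 list these values were 35.3%, 4.24, 39.5% near CopiaMBD3 and 17.4%. Requiring an overlap of 50% of the shorter peak gave 30.8% of CopiaMBD2 peaks, with 46.4% near another domain, and joining peaks up to 200 bp apart gave 24.3%, 32.0%, and 8.83% near another such region. With control under 3 times the lowest, chosen after seeing the data, these were 34.1% of CopiaMBD2 peaks, a median fold of 4.29 and 15.2% near another such region. At 500 bp and 5 kb, 29.2 and 70.9% were near another domain and 8.41 and 35.1% near another such region. Against regions of all 3 domains, the median fold and the CopiaMBD2 amplified-DNA share of CopiaMBD2-only regions were lower under each alternative that kept the 3 lists. So was the contig share, except on sequences spanning at least 100 kb (1.32 against 0.940%). That alternative left only 13 of 982 CopiaMBD2-only regions on contigs, so it cannot check the contig share. The intervals of the CopiaMBD2 amplified-DNA shares stayed apart with the 50% overlap and with joined peaks, and overlapped under the other alternatives to the peaks or sequences that kept the 3 lists. Beside regions of CopiaMBD1 and CopiaMBD2, the median fold was higher with a −log10 q of at least 10 in all lists (6.80 against 5.97). It was also higher with strict CopiaMBD2 peaks against the full other lists (6.74 against 6.64). Under the other alternatives that kept the 3 lists it was lower. The causes were not tested. No paired analysis was possible because each group had 1 library and the labels carry no replicate numbers.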
